A study of Homo sapiens with 2 samples.

Results

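Readthrough genes are named for transcripts that run from one gene into its neighbour on the same strand and join exons of both. They were taken here as genes whose annotation symbol is a pair of other gene symbols joined by 1 hyphen, antisense names left out, and were selected on their expected count, which had to reach 10 in each library. Of the 57736 genes listed, 111 carried such a symbol and 58 met the count limit, among 16737 genes of any kind that met it. Since they were chosen by a measured value, this expected count, the presence of these 58 genes in the cells is a description and was not tested. The RNA was poly(A)+ RNA, sequenced from HEK293T, a line of human embryonic kidney cells with the large T antigen of SV40. By the labels, all cells were heated at 43 °C for 20 min and recovered at 37 °C for 6 h, and the labels put both libraries, replicate 1 and replicate 2, in 1 group. The study's text gives a longer heating time than the labels. Untreated cells were not analysed here, so no effect of heat could be measured, and the comparisons are between each readthrough gene, its parents and the replicates.

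A readthrough transcript arises when RNA polymerase passes the poly(A) site of the upstream gene and the splicing machinery joins an upstream exon to an exon of the downstream gene. Cleavage at the poly(A) site normally ends the message and lets the polymerase be released, and the U1 snRNP, which binds splice donor sites, also guards against cleavage inside introns. Failure of termination after heat and other stresses is a known source of RNA downstream of genes. Many joined messages carry early stop codons and are substrates of nonsense-mediated decay, a pathway that removes such RNA. As a readthrough transcript shares most of its exons with its parents, a short read often cannot be assigned to one of the 3 genes, and the quantifier divides it among them.

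All 58 readthrough genes lay on the same strand as both parents, overlapped both, and followed the order of their symbols. They were spread over 23 chromosomes. The parents overlapped each other at 8 loci, were separated by at most 10000 bp at 33 and by more at 17, and parents that did not overlap stood 139 to 108285 bp apart, with a median of 5634 bp. The annotation tagged 52 as readthrough genes, and the 6 without the tag were PDXDC2P-NPIPB14P, SLX1A-SULT1A3, BMS1P4-AGAP5, SUGT1P4-STRA6LP, PKD1P6-NPIPP1 and ARMCX5-GPRASP2. It classed 52 as protein coding and 6 as lncRNA. Of the protein-coding genes 14 had no coding transcript but had transcripts marked for nonsense-mediated decay, with or without others that lack a coding sequence. Altogether 36 genes had a coding transcript. Those with neither a coding transcript nor one marked for decay numbered 7, not all of them classed as lncRNA. BIVM-ERCC5 had no transcript that could be matched.

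A junction that joins exons of both parents is found in neither parent alone, although a readthrough gene can have other sequence of its own. Below, lower case letters are the last 15 bases of a readthrough exon that overlaps an exon of the upstream parent. Capitals are the first 15 bases of the next exon, which overlaps an exon of the downstream parent. These exons need not end or start where those of the parents do. For ANKHD1-EIF4EBP3 the last exon position, 139921866, lies past the annotated end of ANKHD1 at 139919441. The sequences are shown for the genes of highest count and of largest or smallest uncertainty for which a joining junction was found. Only 1 junction is shown for each gene, although MSH5-SAPCD1, NDUFC2-KCTD14, CFAP298-TCP10L and ARPIN-AP3S2 had more than 1. They were read from GENCODE transcripts on GRCh37 and are given with the last and first exon position.
ANKHD1-EIF4EBP3, chromosome 5, plus strand, 139921866 to 139928491: ctctcctaaccagagGCACCAGGATCATCT
ARHGAP19-SLIT1, chromosome 10, minus strand, 98988904 to 98924647: aagaggggaaaaaagGGAACTCAATGGCAA
ARPIN-AP3S2, chromosome 15, minus strand, 90446448 to 90432372: gaggacgaggagtggCCAGAAGAAATTCAA
ATP5MF-PTCD1, chromosome 7, minus strand, 99057709 to 99032891: gagcgtttcaaagagGCCCTGGAGGGACAG
CFAP298-TCP10L, chromosome 21, minus strand, 33974582 to 33954725: caagaggagctcaagCCATTACAGCAGCAG
FMC1-LUC7L2, chromosome 7, plus strand, 139030367 to 139060808: aatttcatggcaaggGAGATACAACTCGTC
HNRNPUL2-BSCL2, chromosome 11, minus strand, 62482972 to 62474796: caatacaatcgggatGGACCCTCCATTTTC
MSH5-SAPCD1, chromosome 6, plus strand, 31730347 to 31730567: cctcctgagactccgGAAGACTCCCGGATT
NDUFC2-KCTD14, chromosome 11, minus strand, 77784044 to 77728316: attttcctgaagaagATGTCTACTGTTGTG
RPS10-NUDT3, chromosome 6, minus strand, 34386146 to 34263462: accgaattccagtttGCTGGAGTAAAAGGG
TVP23C-CDRT4, chromosome 17, minus strand, 15449099 to 15343599: acagtaaagtggctgGAATCTGAACCTGTG
Such a junction was found for 48 of the 58 genes, 80 in all. For 10 none was found, among them PDXDC2P-NPIPB14P, BMS1P4-AGAP5, SUGT1P4-STRA6LP and ARMCX5-GPRASP2, which also lacked the tag. The 10 also included CENPS-CORT, UBE2F-SCLY and PMF1-BGLAP, which carried the tag, and BIVM-ERCC5, which had no transcript to search. Only adjacent exons were searched, the first overlapping the upstream parent alone and the next the downstream parent alone. Transcripts that join the parents in another way were therefore missed. Of the junctions, 56 lay in annotated coding sequence of 37 genes. This includes the coding sequence of transcripts marked for nonsense-mediated decay, as in HNRNPUL2-BSCL2. The introns removed ran from 219 bp in MSH5-SAPCD1 to 122683 bp in RPS10-NUDT3, with a median of 15104 bp. Of all 50-base sequences of the readthrough genes, the read length, a median of 11.7% over 57 genes occurred in no other listed gene. The range ran from 0.93% in SLX1A-SULT1A3 to 90.5% in ZNF670-ZNF695. ZNF670, the upstream parent of the latter, was not among the listed genes. Sequence shared with it was therefore not looked for, and the 90.5% is an upper limit. For 11 genes the only sequences found in no other listed gene were those that span the junctions. A median of 29.9% was shared with the upstream parent and 41.4% with the downstream parent, and 12 genes shared more than 25% with a further gene. Among these, SLX1A-SULT1A3 shared 97.8%, BMS1P4-AGAP5 87.8%, PKD1P6-NPIPP1 68.6% and RPS10-NUDT3 61.2% with a further gene.

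The expected counts of the 58 genes ran from 11.2 to 2359 in replicate 1, with a median of 126, and from 21.8 to 2446 in replicate 2, with a median of 151. The libraries held 22529828 and 26890199 expected counts. On the TPM scale, which corrects for transcript length, 50 genes reached 1 in both libraries and 10 genes reached 10. The mean TPM had a median of 4.25, against 25.1 for the upstream parents and 7.27 for the downstream parents. The markers PAX2, LIN28B, NEFM, UCHL1, KRT18 and VIM, usual for HEK293 cells, all reached 1 TPM in both libraries, while PTPRC and CD3E of leukocytes were at 0 in both. Of 7 matched genes of other cell types, MYOD1 at a mean of 2.63 TPM and GFAP at 2.96 TPM reached 1 TPM in both libraries. In such bulk samples fewer cells of a type and less RNA per cell cannot be told apart.

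The first question was how far each readthrough gene stood below or above its parents. Most readthrough genes lay below the upstream parent. The credibility bounds that the quantifier gives around each TPM, for which no source used here gives the level, lay wholly below those of the upstream parent in both libraries for 39 genes, wholly above for 3, and overlapped or changed between libraries for 15. Against the downstream parent 19 genes were below, 12 above and 27 neither, and 13 were below both parents while none was above both. The upstream parent had the higher TPM of the parents in both libraries at 37 of 57 loci. ZNF670, the upstream parent of ZNF670-ZNF695, was not analysed here, which left 57 loci for every value that needs both parents.

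HNRNPUL2-BSCL2 (ENSG00000234857, chromosome 11, 62457747 to 62494856) had the highest mean count, 2359 in replicate 1 and 2443 in replicate 2. HNRNPUL2 is a nuclear RNA-binding protein and BSCL2 encodes seipin, a membrane protein of lipid droplet formation. The readthrough gene had 32.7 and 29.8 TPM, HNRNPUL2 27.3 and 28.6 TPM, and BSCL2 9.83 and 10.0 TPM. It was thus above its downstream parent in both libraries by bounds, whereas its bounds met those of its upstream parent in replicate 2. The TPM of BSCL2 lay below its own bounds, 10.5 to 15.8 in replicate 1 and 10.6 to 15.4 in replicate 2. The single annotated transcript is marked for nonsense-mediated decay.

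FMC1-LUC7L2 (ENSG00000269955, chromosome 7, 139026106 to 139107345) had 1615 and 1718 expected counts. FMC1 is an assembly factor of the mitochondrial ATP synthase, and LUC7L2 is a splicing factor that associates with the U1 snRNP. The readthrough gene had 54.9 and 51.3 TPM, FMC1 12.8 and 11.2 TPM, and LUC7L2 173 and 205 TPM. It was 1 of the 3 genes above the upstream parent, and it was below the downstream parent, with which it shared 82.5% of its 50-base sequences. The other two above their upstream parents were INMT-MINDY4, with 5.25 and 5.20 TPM against 0 for INMT in both libraries, and COMMD3-BMI1. For the latter the readthrough gene had 25.3 and 24.2 TPM against 7.87 and 9.15 TPM for COMMD3, while BMI1, a Polycomb protein, had 31.2 and 69.5 TPM.

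RPS10-NUDT3 (ENSG00000270800, chromosome 6, 34252664 to 34393848) joins a protein of the small ribosomal subunit to a Nudix hydrolase. It had 49.1 and 58.5 TPM, the highest mean of the 58 genes at 53.8 ± 6.65 TPM (SD, n = 2). RPS10 had 1265 and 1002 TPM and NUDT3 22.9 and 25.2 TPM. The readthrough gene was therefore far below one parent and about 2.14 and 2.32 times the other in the same libraries.

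CFAP298-TCP10L (ENSG00000265590, chromosome 21, 33774820 to 33985175) had 45.4 and 56.3 TPM. CFAP298 takes part in the assembly of cilia, and TCP10L is chiefly a testis gene. CFAP298 itself had 47.3 and 48.2 TPM, and the bounds of the readthrough gene met those of CFAP298 in both libraries. TCP10L had 0.92 and 1.43 TPM. ARHGAP19-SLIT1 also stood above its downstream parent by bounds, with 13.2 and 15 TPM for the readthrough gene, 8.0 and 9.14 TPM for ARHGAP19, and 0.81 and 1.33 TPM for SLIT1, an axon guidance ligand. Little RNA was thus assigned to either downstream parent alone. At 10 loci the downstream parent was under 1 TPM in both libraries, and at 4 the upstream parent was.

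**Figure D1:**
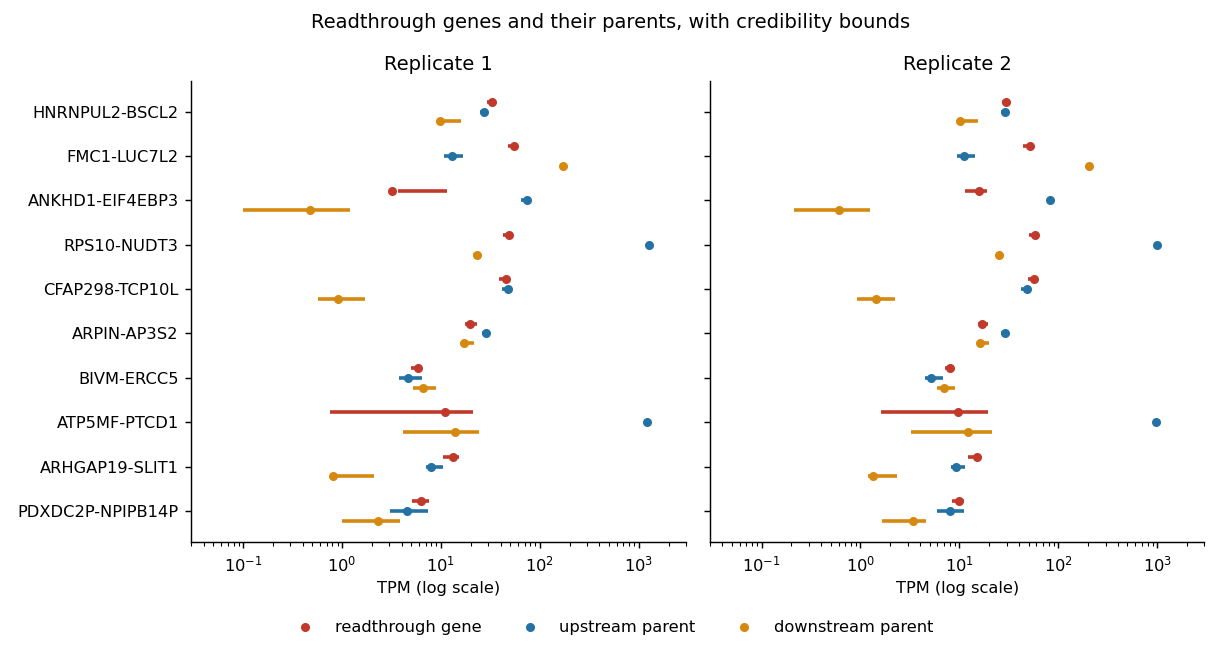
TPM on a log axis in replicate 1 (left) and replicate 2 (right) for the 10 readthrough genes of highest mean count and their parents; points are TPM and lines are credibility bounds. The readthrough gene lies above the downstream parent at CFAP298-TCP10L and ARHGAP19-SLIT1 and far below the upstream parent at RPS10-NUDT3 and ATP5MF-PTCD1, where its own bounds are wide.

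The share of the locus, the readthrough TPM as a percent of the summed TPM of the readthrough gene and its parents, had a median of 11.1% over 57 loci. It was 10.6% in replicate 1 and 12.8% in replicate 2. The share was under 5% in both libraries at 16 loci and over 50% in both at 2, ARHGAP19-SLIT1 and SUGT1P4-STRA6LP. ARHGAP19-SLIT1 held 59.4% ± 0.715 (SD, n = 2). SUGT1P4-STRA6LP held 100% in replicate 1 and 54.8% in replicate 2, on 20.5 and 42.4 counts, with its upstream parent at 0 and 1 counts and its downstream parent at 0 in both, and it had neither the tag nor a joining junction. The next were FAM47E-STBD1, with 65.4% and 41.4%, INMT-MINDY4, with 49.9% and 52.7%, and CFAP298-TCP10L, with 48.5% and 53.2%.

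The 5 lowest mean shares ran from 0.738% to 1.06%. RBM14-RBM4, which joins genes of RNA-binding proteins, held 0.569% and 0.906% in the 2 libraries. ATP5MF-PTCD1 held 0.88% and 0.98% beside ATP5MF, a subunit of the mitochondrial ATP synthase, at 1215 and 972 TPM. UBE2F-SCLY held 0.60% and 1.40%. RPL17-C18orf32 held 0.83% and 1.25% beside RPL17, a protein of the large ribosomal subunit, at 699 and 709 TPM, and NDUFC2-KCTD14 held 0.72% and 1.40% beside NDUFC2, a subunit of respiratory complex I, at 210 and 184 TPM.

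**Figure D2:**
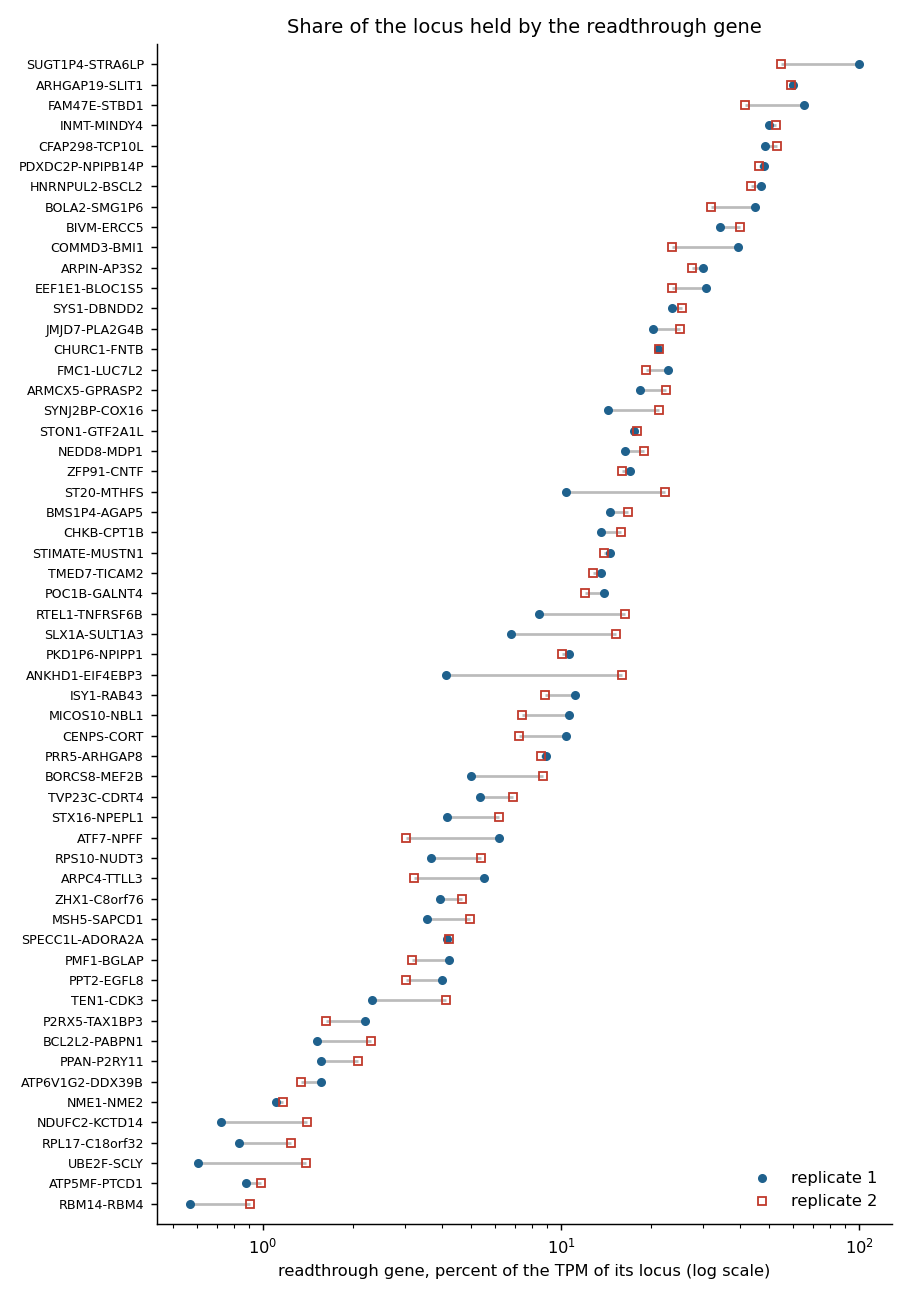
Percent of the TPM of each locus (log axis) assigned to the readthrough gene, for 57 loci in order of their mean, with replicate 1 as filled circles and replicate 2 as open squares. The shares run from under 1% at RBM14-RBM4 to 100% in replicate 1 at SUGT1P4-STRA6LP, and ANKHD1-EIF4EBP3 shows one of the widest gaps between replicates.

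By kind of transcript the shares overlapped broadly. The median share was 9.97% for 35 genes with a coding transcript, 8.80% for 14 with transcripts for decay and no coding transcript, and 15.7% for 7 noncoding genes, whose shares ran from 3.22% to 77.4%. The median mean TPM was 4.25, 4.46 and 3.21 in the same order. By distance, the median share was 7.93% at the 8 loci where parents overlap, 10.1% at 33 with a gap of at most 10000 bp, and 19.1% at 16 with a larger gap, and the ranges of all of these overlapped. These groups were not tested against each other.

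The second question was how certain the counts are. The quantifier gives each count a posterior SD, which measures how freely reads could move between genes that share sequence. It is given here as a percent of the expected count, and in the library where it is larger. The median was 22% over the 58 genes, with a range of 2.69% to 171%, against 0.0606% over all 16737 genes with at least 10 counts in both libraries. At least 10% was found for 44 of the 58 genes, against 7.34% of all genes, and at least 50% for 7, against 0.783% of all genes. A posterior SD above 0 in both libraries was found for all 58, against 54.5% of all genes.

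The parents were mostly less uncertain than the genes that join them. The median was 2.03% for 56 upstream parents and 5.90% for 53 downstream parents with a value. The readthrough gene had the larger relative SD at 51 of 56 loci against the upstream parent, at 42 of 53 against the downstream parent, and at 38 against both. Parents were not held to the count limit and had a higher median TPM, and the part of depth in this difference was not tested.

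**Figure D3:**
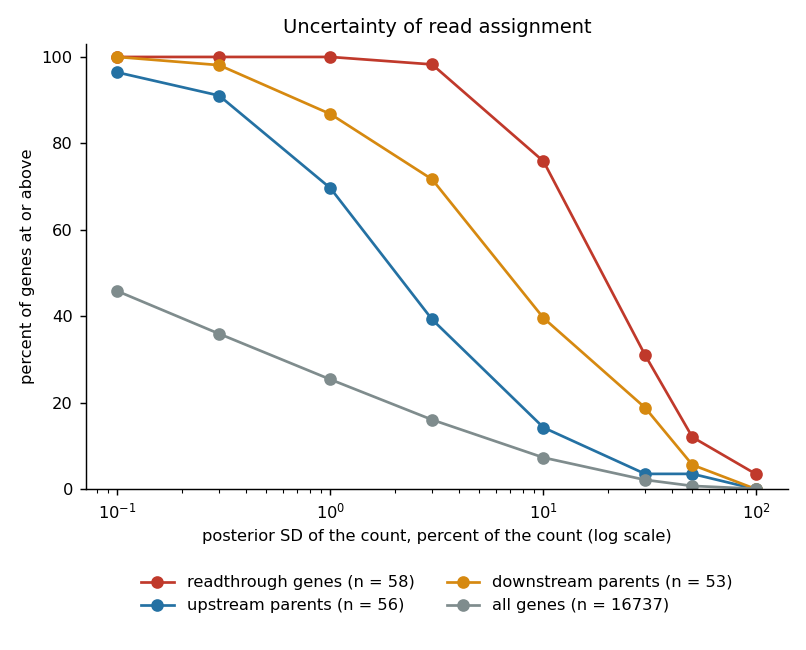
Percent of genes whose posterior SD, as a percent of the count in the more uncertain library, is at or above the value on the log axis, for readthrough genes, their parents and all genes with at least 10 counts in both libraries. The readthrough genes lie above both groups of parents from 1% on, and at 10% they stand at 75.9%, against 14.3% of upstream and 39.6% of downstream parents and 7.34% of all genes.

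The largest relative SDs were those of MSH5-SAPCD1, TVP23C-CDRT4, UBE2F-SCLY, ANKHD1-EIF4EBP3 and NDUFC2-KCTD14. MSH5-SAPCD1, whose upstream parent acts in meiotic recombination, had 25.8 ± 44.1 counts (posterior SD) in replicate 1 and 75.7 ± 41.1 in replicate 2. TVP23C-CDRT4 had 11.2 ± 12.0 and 21.8 ± 19.4 counts, and UBE2F-SCLY, which joins a conjugating enzyme of NEDD8 to selenocysteine lyase, 18.3 ± 17.9 and 43.7 ± 28.1. In replicate 1 the SD thus exceeded the count for the first pair and came near it for the third. NDUFC2-KCTD14 had 16.9 ± 12.9 and 33.1 ± 15.3 counts. ATP5MF-PTCD1 combined a high count with a large SD, at 485 ± 320 and 495 ± 268.

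The smallest relative SDs were those of HNRNPUL2-BSCL2, at 2.48% and 2.69%, ARPIN-AP3S2, at 3.66% and 3.76%, BIVM-ERCC5, at 3.86% and 2.53%, CFAP298-TCP10L, at 4.97% and 4.08%, and PDXDC2P-NPIPB14P, at 5.09% and 3.68%. ARPIN inhibits the complex that nucleates branched actin and AP3S2 belongs to an adaptor complex of vesicle transport. ERCC5 is an endonuclease of nucleotide excision repair. HNRNPUL2-BSCL2 reached this precision with only 49 of its 3952 50-base sequences, 1.24%, found in no other gene, all of them across the junction printed above. CFAP298-TCP10L had 51.6% and PDXDC2P-NPIPB14P 46.2%.

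Over 57 genes the percent of private sequence ran with the relative SD at a Spearman correlation of -0.08, the percent shared with a further gene at -0.01, the mean count at -0.56 over 58 genes and the locus share at -0.64 over 57. These are descriptions across genes of the same libraries that share depth and, in part, sequence. The count and share are themselves estimates of the same quantifier. As the relative SD is divided by the expected count, a negative correlation with the count and share is partly built in. These correlations therefore cannot be compared with that of private sequence. TVP23C-CDRT4 had 58.2% private sequence and a relative SD of 108%.

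**Figure D4:**
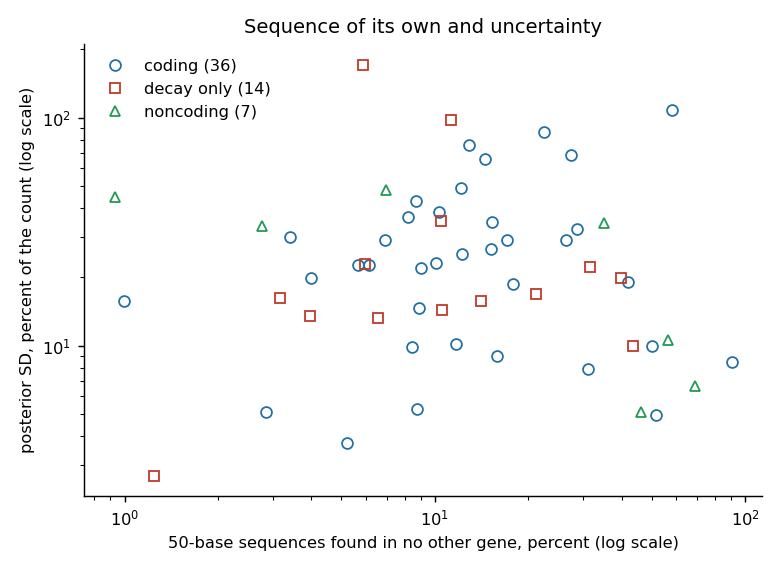
Posterior SD as a percent of the count, in the more uncertain library, against the percent of 50-base sequences found in no other gene, both on log axes, for 57 readthrough genes by kind of transcript. HNRNPUL2-BSCL2 sits lowest at 1.24% private sequence and 2.69%, MSH5-SAPCD1 highest at 171%, and the kinds are intermixed.

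The third question was whether the libraries, which had the same treatment, gave the same amounts. An exact binomial test per gene, which compares the reads of these libraries and not any conditions, called 28 of the 58 genes, or 48.3%, after Benjamini-Hochberg adjustment over all genes tested. It called 42.2% of all 19714 genes tested and 47.2% of those with at least 10 counts in both libraries, so the share of readthrough genes called was near that of other genes. Of the 28, 16 were higher in replicate 2 and 12 in replicate 1. When each count was moved by 1 posterior SD towards equality before the test, 7 readthrough genes remained, or 12.1%, against 37.9% of all genes. With the GC trend removed, 18, or 31.0%, were called against 26.7% of all genes. BIVM-ERCC5 had no GC value and, like any other gene without one, entered this test uncorrected. The 37.9% and 26.7% are over all genes tested, not only those with at least 10 counts in both libraries, so the sets differ.

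The 7 genes called with counts moved by 1 posterior SD were ANKHD1-EIF4EBP3, HNRNPUL2-BSCL2, PDXDC2P-NPIPB14P, BIVM-ERCC5, ARMCX5-GPRASP2, STX16-NPEPL1 and ARPIN-AP3S2. Their log2 ratios of replicate 2 over replicate 1 ran from -0.28 for ARPIN-AP3S2 to 2.38 for ANKHD1-EIF4EBP3. The ratio of HNRNPUL2-BSCL2, -0.23, became -0.02 with the GC trend removed, with an adjusted p of 0.859 in the exact binomial test, and that of ARPIN-AP3S2 became -0.16, with an adjusted p of 0.0781 in the same exact test.

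ANKHD1-EIF4EBP3 (ENSG00000254996, chromosome 5, 139781493 to 139929154) differed most. ANKHD1 is an ankyrin repeat and KH domain protein, and EIF4EBP3 binds the cap-binding translation factor and restrains translation. The readthrough gene had 386 ± 334 counts (posterior SD) in replicate 1 and 2446 ± 372 in replicate 2, a log2 ratio of 2.38 with an adjusted p of 8.61e-281 in the exact binomial test. Its TPM of 3.17 in replicate 1 lay below its own credibility bounds of 3.72 to 11.6, and 15.9 TPM in replicate 2 lay within 11.3 to 19.1. The posterior mean counts were 939 and 2325, a log2 ratio of 1.04. ANKHD1 had 5306 and 5243 counts in the same libraries and EIF4EBP3 5.58 and 8.10. The summed counts of the locus, 5698 and 7697, had a log2 ratio of 0.15. ISY1-RAB43 was the other of 2 genes with a TPM outside its own bounds in a library, against 7.78% of all genes.

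The other genes with the largest ratios towards replicate 2 were MSH5-SAPCD1 at a log2 ratio of 1.25, SLX1A-SULT1A3 at 1.03, STX16-NPEPL1 at just under 1.00 and RBM14-RBM4 at just under 1.00. SLX1A-SULT1A3, which joins a subunit of a structure-specific nuclease to a catecholamine sulfotransferase, had 162 ± 72.7 and 403 ± 121 counts (posterior SD). STX16-NPEPL1, with a syntaxin of the trans-Golgi network upstream, had 44.5 ± 7.47 and 109 ± 11.5 counts, and RBM14-RBM4 had 20.5 ± 14.1 and 50.5 ± 31.8. Of these, STX16-NPEPL1 alone was called with counts moved, at an adjusted p of 0.0367 in the exact test. From posterior mean counts the log2 ratio was 0.00 for MSH5-SAPCD1, with 101 and 122 counts, and 0.23 for SLX1A-SULT1A3, with 264 and 373, and neither was called, at adjusted p-values of 1.00 and 0.111 in the exact test. It was 0.98 for STX16-NPEPL1 and 0.80 for RBM14-RBM4, and both were called.

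Towards replicate 1 the largest were ARPC4-TTLL3, at a log2 ratio of -1.01 on 50.2 and 30.2 counts, ATF7-NPFF at -0.96 on 49.7 and 30.9, and CENPS-CORT at -0.79 on 65.6 and 46.0. ARPC4 is a subunit of the complex that nucleates branched actin and TTLL3 modifies tubulin. NPFF and CORT are neuropeptide genes, and CENPS is a kinetochore protein. PMF1-BGLAP followed at -0.71 on 48.4 and 35.8 counts and MICOS10-NBL1 at -0.65 on 150 and 116. PMF1-BGLAP was not called, at an adjusted p of 0.0649 in the exact test. None of these 5 was called with counts moved by 1 posterior SD, and none with the GC trend removed. From posterior mean counts ARPC4-TTLL3, at a log2 ratio of -0.75, and MICOS10-NBL1, at -0.52, were called by the exact test.

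Ratios of at least 2-fold either way were found for 4 readthrough genes, 3 of them towards replicate 2, against 4.46% of all genes with at least 10 counts in both libraries. None of the 57 loci reached 2-fold when the counts of the readthrough gene and its parents were summed. The median size of the log2 ratio was 0.47 for the readthrough genes, 0.28 for the upstream and 0.25 for the downstream parents, 0.18 for the locus sums and 0.24 for all genes with at least 10 counts in both libraries. The readthrough genes had a median of 295 counts over both libraries, the locus sums 2541 and all such genes 898, and the part of this difference in depth was not tested. The ratio of the readthrough gene was larger in size than that of its locus at 41 of 57 loci. Of the 28 called genes, 7 had a locus sum that moved the other way, RTEL1-TNFRSF6B, SLX1A-SULT1A3, RPL17-C18orf32, RBM14-RBM4, UBE2F-SCLY, COMMD3-BMI1 and FMC1-LUC7L2.

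**Figure D5:**
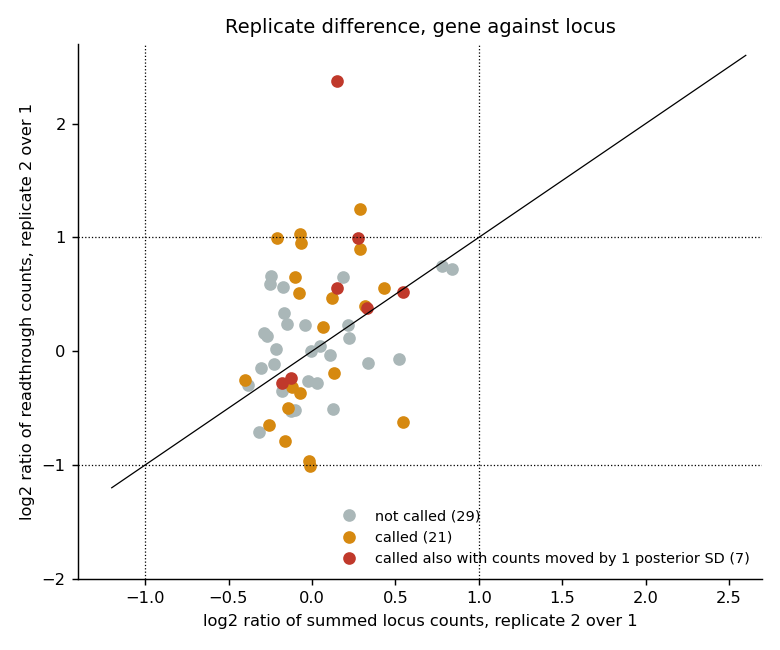
Log2 ratio of replicate 2 over replicate 1 for the readthrough gene against the same for the summed counts of its locus, for 57 loci; dotted lines mark 2-fold, the solid line marks equality and colours give the exact binomial calls. The locus sums stay within -0.40 and 0.84, while ANKHD1-EIF4EBP3 stands at 2.38 for the gene and 0.15 for the locus.

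Near the count limit, the genes just inside were TVP23C-CDRT4, with 11.2 and 21.8 counts, NDUFC2-KCTD14, with 16.9 and 33.1, and UBE2F-SCLY, with 18.3 and 43.7. The genes just outside were RBAK-RBAKDN, with 9.48 and 24.3, FPGT-TNNI3K, with 8.70 and 17.9, and CKLF-CMTM1, with 8.43 and 37.7. The values pass from one side of the limit to the other without a gap. Of the 53 genes outside, 14 reached 10 counts in one library, 15 were above 0 and below 10 in both, and 24 were at 0 in both. A count of 0 in a library allowed up to 3 counts, for counting error only.

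The genes that end or survey transcripts were expressed throughout. The 4 lists given here were cleavage and polyadenylation, termination, nonsense-mediated decay and U1 snRNP proteins. All 22 genes of cleavage and polyadenylation had at least 1 TPM in both libraries, as did all 12 of termination, 17 of 17 matched of decay and all 7 of the U1 snRNP. For cleavage and polyadenylation the highest were PABPN1, the nuclear poly(A)-binding protein, at 422 ± 32.0 TPM (SD, n = 2), PPP1CA at 169 ± 31.0 TPM and NUDT21, a subunit of a cleavage factor, at 165 ± 14.7 TPM. PABPN1 is also the downstream parent of BCL2L2-PABPN1, which had 7.04 and 9.70 TPM. The highest of termination were SSU72, a phosphatase of RNA polymerase, at 228 ± 19.2 TPM, SUPT5H at 152 ± 4.0 TPM and RPRD1A at 125 ± 32.8 TPM.

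The highest of decay were RNPS1, a peripheral protein of the exon junction complex, at 546 ± 4.20 TPM (SD, n = 2), CASC3 at 129 ± 2.40 TPM and EIF4A3 at 85.6 ± 6.34 TPM. Those of the U1 snRNP were SNRPA at 514 ± 48.7 TPM, SNRNP70 at 445 ± 6.26 TPM and SNRPC at 422 ± 24.0 TPM. Between the libraries 10 genes of cleavage and polyadenylation were called higher in replicate 2 and 8 higher in replicate 1 by the exact binomial test. The counts were 4 and 4 for termination, 3 and 8 for decay, and 3 and 3 for the U1 snRNP, beside 22.1% and 20.1% of all genes. Calls in the exact test depend on depth, and the lists were not matched to all genes by count. With the GC trend removed, calls in either direction numbered 9 of 22 for cleavage and polyadenylation, 5 of 12 for termination, 7 of 17 for decay and 5 of 7 for the U1 snRNP, beside 26.7% of all genes. RBBP6, a subunit associated with the cleavage machinery, was the only one of these genes past 2-fold, with 34.8 and 62.7 TPM and a log2 ratio of 1.06, which was 0.77 with the GC trend removed.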

How the data were processed

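The expected counts deposited by the authors came from poly(A)+ RNA read as 50 bp tags, with reads that fit several genes divided among them. The submitters' processing notes list Trimmomatic 0.36, STAR 2.6.1c and RSEM 1.3.1 and the builds hg19 and GRCh37.p13, whereas the methods name featureCounts. The deposited TPM values are scaled for transcript length to a fixed total, the deposited FPKM values to the reads of the library, and the signal columns deposited with them are credibility bounds. No source used here gives the use of strand in counting, and the labels give the molecule as genomic DNA.

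Gene models and transcripts came from GENCODE release 44 lifted to GRCh37, another release than the one counted, to which 96.1% of gene identifiers matched. Each expected count was rounded for an exact two-sided binomial test between the 2 libraries with edgeR 4.0.16 TMM sizes. Adjustment was by Benjamini-Hochberg over genes whose counts summed to 10 or more, at 0.05. The test was checked on simulated Poisson counts scaled by library totals. These had no uncertainty of read assignment and no spread between libraries beyond counting error, so the check does not cover either. Log2 ratios used a pseudocount of 0.5. GC trends were medians in 50 classes. The libraries are replicates by label. The p-values of the exact binomial test set the rounded expected counts against counting error at the library sizes. They do not measure a spread between replicates. Posterior SDs cover read assignment. The bounds keep a width also where the posterior SD is 0, so they are not of read assignment alone. Genes were named by rank of count, relative posterior SD, log2 ratio and locus share and by closeness to the count limit, with the 3 highest and any beyond 2-fold of each list. ARMCX5-GPRASP2, BCL2L2-PABPN1, BMS1P4-AGAP5, COMMD3-BMI1, ISY1-RAB43, PKD1P6-NPIPP1, RTEL1-TNFRSF6B and ZNF670-ZNF695 were named after their values were seen. The readthrough genes and the lists were chosen with earlier results of these data known. Alternatives covered limits, units, scaling, GC, posterior means and single libraries. DESeq2 gave alternative size factors.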

Additional observations from a re-analysis of the deposited data

Results flagged for a closer look

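Of the 24 readthrough genes with an expected count of 0 in both libraries, 8 had a posterior mean count above 3, the limit that a count of 0 allows, in both. These are genes outside the comparisons above, listed because the posterior mean, another estimate of the same files, was above that limit. The lower of the posterior mean counts of the libraries was 33.4 for CORO7-PAM16, 23.9 for BLOC1S5-TXNDC5, 15.3 for EFNA4-EFNA3, 9.73 for SLX1B-SULT1A4, 7.12 for TSNAX-DISC1, 4.71 for HSPE1-MOB4, 4.53 for TNFSF12-TNFSF13 and 3.30 for URGCP-MRPS24. CORO7-PAM16 had 33.4 ± 22.8 (posterior SD) in replicate 1 and 36.7 ± 25.8 in replicate 2, and BLOC1S5-TXNDC5 had 23.9 ± 24.3 and 58.6 ± 45.9. Another 4 genes had SDs close to or above their posterior means, 9.73 ± 9.29 and 9.97 ± 9.93 for SLX1B-SULT1A4, 4.71 ± 4.39 and 8.34 ± 7.17 for HSPE1-MOB4, 6.44 ± 6.2 and 4.53 ± 4.46 for TNFSF12-TNFSF13, and 3.30 ± 3.80 and 3.83 ± 4.12 for URGCP-MRPS24. EFNA4-EFNA3 had 15.3 ± 12.5 and 22.9 ± 18.0, and TSNAX-DISC1 8.84 ± 4.67 and 7.12 ± 3.99. SLX1B-SULT1A4 had 0% of its 50-base sequences to itself. The lower TPM bounds of these genes reached up to 0.0749 and the upper ones up to 2.85. Over all 26076 genes at 0 in both libraries, 158 met the same limit.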

How the results depend on the processing

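No paired analysis was possible because the labels give a single group. Alternatives gave 45 values, of which 9 moved past the tolerance, which was 1.5 times for counts of genes, the SD between libraries for the locus share and the SD over genes for the median log2 ratio. The 28 calls between the libraries became 7 with counts moved by 1 posterior SD and 18 with the GC trend removed, while library totals, DESeq2 size factors, no count filter and posterior means gave 19 to 29. The 58 genes became 50 to 77 under other limits and units, within that tolerance. The 7 genes with a relative SD of at least 0.5 became 24 at a limit of 0.25 and 2 at a limit of 1. The median locus share of 11.1% was 13.7% over genes with a relative SD under 0.5. The 19 genes below the downstream parent became 29 with bounds ignored. The 4 genes past 2-fold became 1 with posterior means, 6 with the GC trend removed and 2 among genes with a relative SD under 0.5. The causes were not tested, beyond what each alternative changes. Leaving out a replicate gave 64 to 66 readthrough genes, 5 to 7 with high SD, a median share of 10.6% to 12.8%, 39 to 41 below the upstream and 22 to 24 below the downstream parent. With 1 group of 2 libraries, depth limits the lowest counts, and amounts of 0 allow up to 3 counts. The median log2 ratio of the readthrough genes, 0.12, was 0.02 among genes with a relative SD under 0.5. Calls higher in replicate 2 against replicate 1 were 16 and 12, 18 and 11 with library totals, and 15 and 12 with DESeq2 size factors.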

Other observations

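A further deposited table, read here as the authors' pooled values, gave another count for each readthrough gene from all reads together. Of the 58 genes, 53 had a pooled count within 5% of the sum of the libraries. SLX1A-SULT1A3 stood 21.0% above the sum, with 684 pooled counts, CENPS-CORT 15.5% above, with 129, and CHKB-CPT1B 9.29% above. ATF7-NPFF differed from the sum by -8.39% and ARPC4-TTLL3 by -5.01%. ANKHD1-EIF4EBP3, the gene with the largest ratio between replicates, had 2704 pooled counts, a difference of -4.54%. CHKB-CPT1B was named after its values were seen.

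The posterior mean would have admitted 77 readthrough genes at the same limit of 10 in both libraries, in place of 58. Of the 53 genes outside the limit, 19 had a posterior mean of at least 10 in both libraries, and the highest posterior mean in a library among them was 117.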
